A study of Drosophila melanogaster with 6 samples.

Results

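UDP-glycosyltransferase genes were followed in Kc-167 cells, a Drosophila melanogaster cell line of embryonic origin with features of haemocytes, after RNA interference (RNAi). The set comprised every probe set that the array's annotation assigned to 1 gene and whose symbol was Ugt followed by a digit. There were 35 such probe sets among the 14010 on the array, and they stood for 33 of the 10845 genes that the annotation named singly. The RefSeq table of fly genes held 35 genes of this name pattern, of which Ugt50B3 and Ugt35D1 had no probe set of their own here. Cells of the Enigma RNAi group were treated for 5 days with double-stranded RNA against Enigma (CG9006, current symbol Egm), which encodes a mitochondrial relative of the acyl-CoA dehydrogenases. Cells of the control RNAi group were treated in the same way with double-stranded RNA against a bacterial gene, beta-lactamase, which has no fly counterpart to silence. Both groups received 20 µg of double-stranded RNA in 1 hour without serum, and each had 3 arrays, numbered as replicates 1, 2 and 3. Separate cultures are not stated for the replicates, and p-values therefore describe only how far these arrays spread, which may be technical.

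UDP-glycosyltransferases are membrane enzymes of the endoplasmic reticulum that transfer a sugar from a UDP-sugar to small lipophilic molecules, which makes the product more soluble and easier to export. The insect enzymes chiefly use UDP-glucose, whereas many vertebrate enzymes use UDP-glucuronic acid. In insects the family is known for the handling of plant toxins, insecticides, pigments and odorants, and many members are restricted to tissues such as gut, Malpighian tubule, fat body or antenna.

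Expression values are the deposited GCRMA values on the log2 scale, on which a difference of 1 is a doubling, and each difference was taken as Enigma RNAi minus control RNAi. Enigma itself checked the labels: its values were 3.24, 3.51 and 4.21 on the Enigma RNAi arrays, against 6.00, 6.41 and 6.71 on the control arrays. The groups did not overlap, and the difference was -2.72 with a standard error of 0.29 in the limma fit without the replicate number. An exact permutation test (two-sided) gave p = 0.1, the lowest possible value for groups of 3. It fell in the limma fit that includes the replicate number (adjusted p = 0.000118) and did not pass without it (limma, adjusted p = 0.283). Of the plasmatocyte markers, 9 of 10 were on the array and 5 of these passed the expression filter described next, among them Hml, a clotting protein of haemocytes, and the type IV collagen genes Col4a1 and vkg. The scavenger receptor crq and the phagocytosis receptors NimC1 and eater, also plasmatocyte markers, did not pass, and neither did any of the 6 fat body, 3 midgut or 3 antennal markers on the array. Of the 3 Malpighian tubule markers on the array 1 passed, the potassium channel gene Irk2. Of the 3 crystal cell markers 1 passed, the transcription factor gene lz. Both were above 4 on all 6 arrays but close to it, with means over all arrays of 4.44 for Irk2 and 4.1 for lz.

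A probe set was taken as expressed where 3 or more of the 6 arrays gave it a value above 4. By this rule 11 of the 35 Ugt probe sets were expressed, or 31.4%, against 49.9% of all 13966 probe sets that are not Affymetrix controls. The 11 stood for 11 genes: Ugt302K1, Ugt302C1, Ugt35C1, Ugt37C2, Ugt37D1, Ugt36E1, Ugt301D1, Ugt49B1, Ugt49C1, Ugt305A1 and Ugt316A1. Of these, 10 lay above 4 on all 6 arrays, and Ugt302K1 lay above 4 on 5. Ugt301D1 was just inside the rule, with values from 4.34 to 4.69, and Ugt36A1 just outside it, with values from 3.44 to 3.88.

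The other 24 probe sets did not exceed 4 on any array, and their values spanned 2.18 to 3.95. They included Ugt35A1 and both probe sets of Ugt35B1, a gene known for expression in the antenna. Also among them was Ugt36A1, known as Dorothy and expressed in the lymph gland and pericardial cells of the fly. Ugt36A1 had values of 3.44, 3.88 and 3.51 after Enigma RNAi, against 3.79, 3.68 and 3.56 in controls. Ugt304A1 had 3.58, 3.77 and 3.58 after Enigma RNAi, against 3.55, 3.68 and 3.67 in controls, and Ugt303B1 had 3.53, 3.95 and 3.54, against 3.51, 3.69 and 3.60. In all 24 the highest value was that of Enigma RNAi array 2. The same held for 87.2% of all 6991 probe sets below the filter, whose median was 3.15 on that array and between 2.96 and 3.07 on the other 5. The differences of the 24 lay between -0.06 and 0.07. Their median was 0.03, against 0.02 over all probe sets below the filter. The remaining genes of this class were Ugt302E1, Ugt303A1, Ugt303B2, Ugt303B3, Ugt307A1, Ugt317A1, Ugt35E1, Ugt35E2, Ugt36D1, Ugt36F1, Ugt37A1, Ugt37A2, Ugt37A3, Ugt37B1, Ugt37C1, Ugt37E1 and Ugt49B2. The second probe set of Ugt305A1 was also below the filter, at a mean of 3.30, whereas the first had a mean of 4.63, so the gene's status depends on the probe set.

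**Figure D1:**
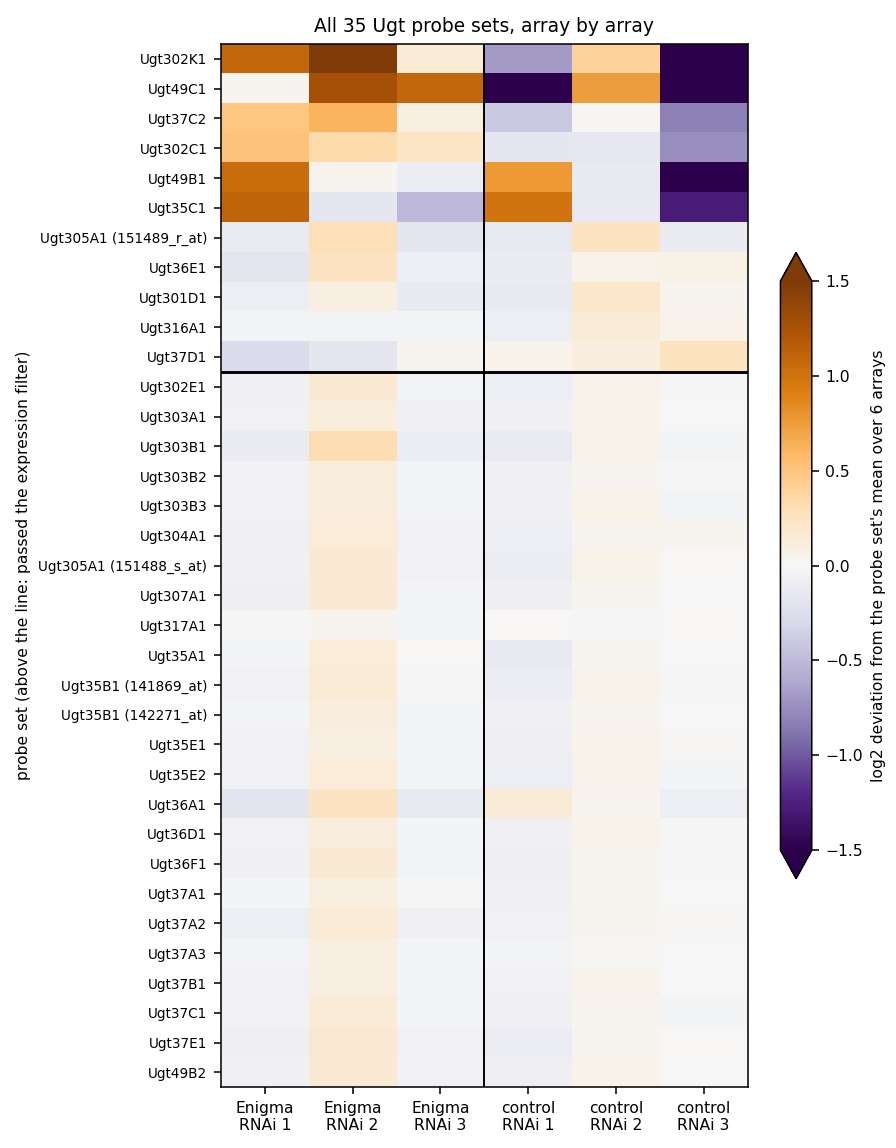
Deviation of each value from its probe set's mean over the 6 arrays (colour, log2), for all 35 Ugt probe sets (rows) on each array (columns, Enigma RNAi left of control RNAi). Below the line are the 24 probe sets under the expression filter, which share a slightly raised Enigma RNAi array 2; above it, 5 genes have their lowest value on control array 3.

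The 33 genes lay on chromosome arms 3R with 16 genes, 2L with 11, 2R with 4 and 3L with 2, and the expressed genes numbered 3 on 3R, 4 on 2L, 2 on 2R and 2 on 3L. Of the genes with a probe set, many sat in 7 runs in which no other protein-coding gene of the RefSeq table intervened. In the longest run, the 6 genes Ugt35E1, Ugt35E2, Ugt35B1, Ugt35A1, Ugt304A1 and Ugt303A1 on 3R, none was expressed. In the run of Ugt302K1, Ugt302E1 and Ugt302C1 the outer genes were expressed and the middle one was not, and the run of Ugt37C2, Ugt37E1 and Ugt37D1 on 2L had the same arrangement. Ugt49B1 and Ugt49C1, adjacent on 2R, were both expressed. Related genes can share sequence with each other's probes, so values of single members of a run are uncertain.

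The mean was higher after Enigma RNAi for 7 of the 11 expressed genes, against 41.7% of all tested probe sets, and lower for 4. The gene with the largest difference was Ugt302K1, followed by Ugt49C1, Ugt37C2, Ugt302C1 and Ugt49B1, and these 5 were higher in all 3 pairs of arrays with the same replicate number, as were 15% of all tested probe sets. Ugt37D1 was the gene lower in all 3 pairs, as were 25.2%. The remaining 5 genes had no common direction. A lower signal from fewer cells that express a gene cannot be told apart from less RNA in each cell in samples of this kind.

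Ugt302K1, also known as Ugt86Di, had values of 7.79, 8.56 and 6.86 on Enigma RNAi arrays 1, 2 and 3, against 6.03, 7.11 and 3.93 on control arrays 1, 2 and 3. Each Enigma RNAi array lay above the control array of its number, but the groups overlapped, because control 2 was above Enigma 3. The means were 7.74 ± 0.85 after Enigma RNAi and 5.69 ± 1.62 in controls (SD, n = 3 each), and the pair differences were 1.76, 1.45 and 2.93. The difference of 2.05 corresponded to a 4.14-fold higher signal. Without the replicate number in the fit it missed the threshold of 0.05 (limma, adjusted p = 0.999). With that number as a block it passed (limma, adjusted p = 0.0297), with a 95% confidence interval of 2.76-fold to 6.20-fold. The blocked call was kept without pair 1 or pair 3, and was lost when the block was random, with an estimated correlation (limma, adjusted p = 0.134). It was also lost without pair 2 (limma, adjusted p = 0.0599), with quantile normalization (limma, adjusted p = 0.129), with cyclic loess (limma, adjusted p = 0.125), with no filter (limma, adjusted p = 0.110) and with values floored at 4 (limma, adjusted p = 0.0519). Without pair 3 the blocked difference was 1.61 (limma, adjusted p = 0.00470), and without control array 3 alone the unblocked difference was 1.17.

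Ugt37C2, or Ugt36Ba, had values of 5.50, 5.64 and 5.12 after Enigma RNAi, against 4.62, 5.03 and 4.21 in controls. All 3 Enigma RNAi values lay above all 3 control values, as in 2.81% of all tested probe sets, and in 8.97% the groups were apart in either direction. The means were 5.42 ± 0.27 after Enigma RNAi and 4.62 ± 0.41 in controls (SD, n = 3 each), a difference of 0.80 or 1.74-fold. It passed with the replicate block (limma, adjusted p = 0.0335) and not without it (limma, adjusted p = 0.999). The pair differences were close to each other, at 0.88, 0.60 and 0.91, and the call was lost without pair 2 or pair 3 (limma with the block, adjusted p = 0.0599 and 0.0931). It was also lost with the random block (limma, adjusted p = 0.115), and with quantile normalization, cyclic loess, no filter or the floor at 4, with limma adjusted p between 0.0538 and 0.125.

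Ugt302C1, or Ugt86Da, was the other expressed gene of the run that holds Ugt302K1. Its values were 8.13, 7.96 and 7.85 after Enigma RNAi, against 7.46, 7.47 and 6.88 in controls. The groups did not overlap, and the difference of 0.71 had a standard error of 0.19 without the block. It missed the threshold without the block (limma, adjusted p = 0.999) and, narrowly, with it (limma, adjusted p = 0.0513). It missed more widely with the random block (limma, adjusted p = 0.115). The same held with the block and quantile normalization, cyclic loess, no filter or the floor at 4 (limma, adjusted p between 0.0752 and 0.129). The blocked fit passed without pair 1 (limma, adjusted p = 0.00155) and with a mean log2 of at least 6 (limma, adjusted p = 0.0390).

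The adjacent genes Ugt49C1 and Ugt49B1 differed less evenly between pairs. Ugt49C1 had 6.35, 7.58 and 7.40 after Enigma RNAi, against 4.72, 7.06 and 4.75 in controls. Control 2 was thus high among the controls, and the pair differences were 1.63, 0.53 and 2.65. The mean difference of 1.60 did not pass with the block (limma, adjusted p = 0.0687). Of 9 fits with the fixed block, 2 passed: without pair 1 (limma, adjusted p = 5.7e-06) and with a mean log2 of at least 6 (limma, adjusted p = 0.0418). Ugt49B1 had 9.68, 8.67 and 8.53 after Enigma RNAi, against 9.40, 8.51 and 7.01 in controls. Its difference of 0.66 came mainly from pair 3, at 1.52 against 0.28 and 0.17 in pairs 1 and 2, and was 0.0093 without control 3 and 1.21 without control 1. It did not pass with the block (limma, adjusted p = 0.202). Of 9 fits with the fixed block, 1 passed, that without pair 1 (limma, adjusted p = 0.00213).

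Ugt37D1, or Ugt36Bc, which lies in the same run as Ugt37C2, had values of 6.93, 7.03 and 7.22 after Enigma RNAi, against 7.26, 7.30 and 7.45 in controls. The groups did not overlap, as in 6.16% of all tested probe sets with the control group above, and the pair differences were -0.33, -0.28 and -0.23. The difference of -0.28 had a standard error of 0.12 without the block and 0.089 with it, and did not pass with the block (limma, adjusted p = 0.155). The run therefore held 1 gene above and 1 gene below control in every pair, with the middle gene under the filter.

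Ugt35C1, or Ugt86Dd, a gene linked to nicotine resistance in flies, had 6.41, 5.14 and 4.79 after Enigma RNAi, against 6.30, 5.17 and 4.02 in controls. Its difference of 0.29 was -0.28 without control 3 and 0.85 without control 1 (limma with the block on all arrays, adjusted p = 0.366). Ugt316A1 had values between 5.82 and 5.83 after Enigma RNAi and between 5.78 and 6.01 in controls. Ugt36E1, Ugt301D1 and the expressed probe set of Ugt305A1 stayed between 4.34 and 4.93 on every array. The differences of these 4 genes lay between -0.08 and 0.003, and the 95% intervals of the blocked fit lay within -0.30 and 0.22. Some of these means changed sign when single arrays were left out.

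**Figure D2:**
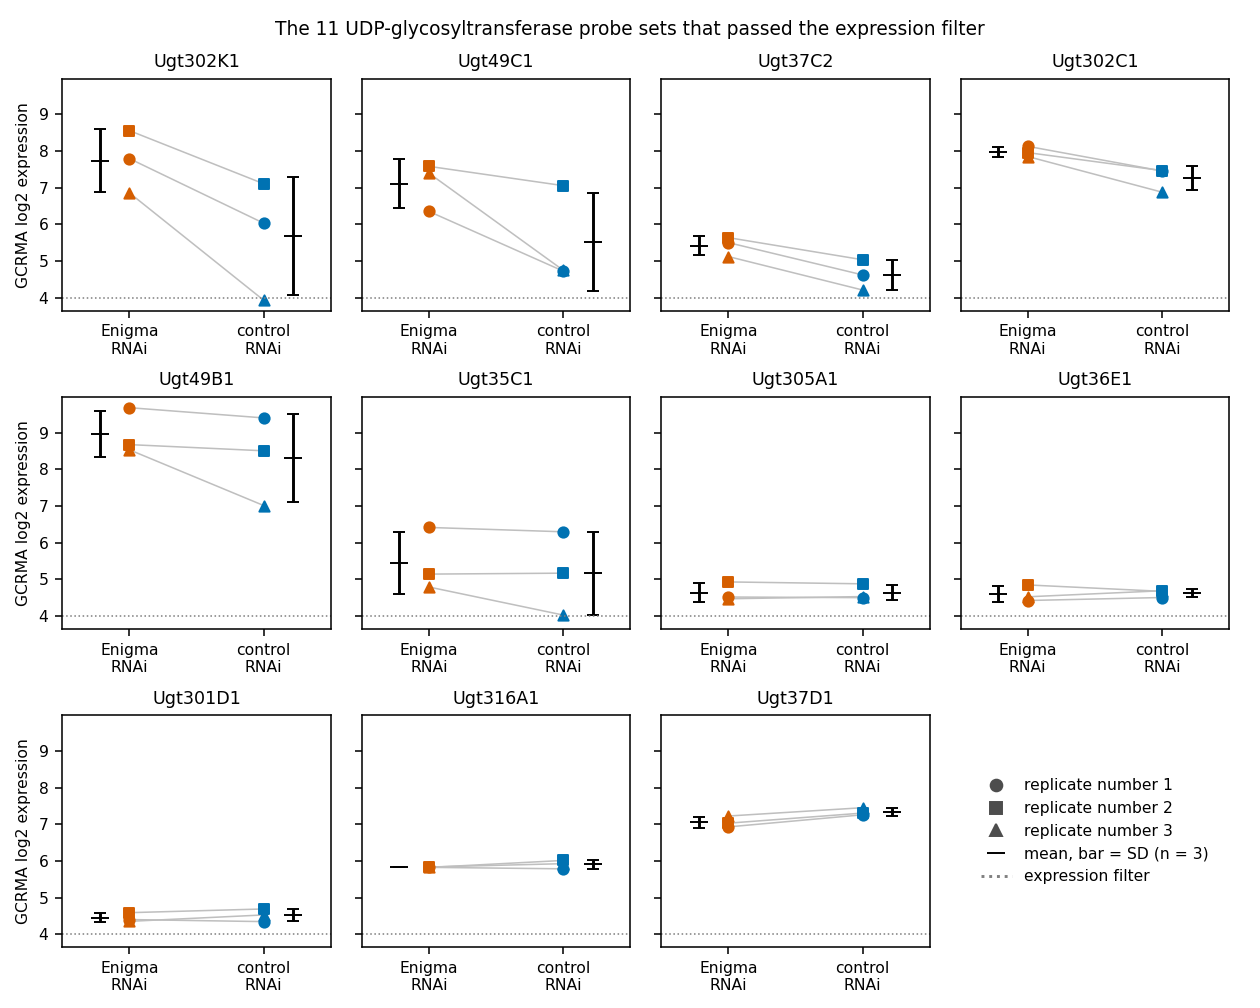
GCRMA log2 expression of the 11 expressed Ugt probe sets on each array, with Enigma RNAi left of control RNAi; symbols give the replicate number, grey lines join arrays of 1 number, black marks are means with SD (n = 3) and the dotted line is the filter at 4. Ugt37C2 and Ugt302C1 lie above control without overlap, Ugt37D1 lies below control without overlap, and in several other genes the replicate numbers are further apart than the treatments.

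Without the block, limma called 0 of 6975 probe sets and 0 of the 11 Ugt probe sets, against 297 (4.26%) and 3 at an unadjusted p under 0.05. With the block it called 44 (0.631%), of which 25 (0.358%) were higher, and 2 of the 11, both higher. With the random block it called 3 probe sets and 0 of the 11. At an unadjusted p under 0.05 the blocked fit had 6 of the 11, against 19.3% of all tested probe sets. The median difference of the 11 was 0.29, against -0.03 over all tested probe sets. That median was 0.0093 without control array 3 and 0.80 without control array 1. The median pair differences were 0.12, 0.17 and 0.77 for the 11, against 0.002, -0.03 and -0.05 for all tested probe sets. A difference of at least 0.5 in size was found for 5 of the 11 and for 4.43% of all tested probe sets.

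In the 6 genes with the largest positive mean differences, pair 3 differed most and pair 2 least. This order of pairs with a positive mean difference thus occurred in 6 of the 11, against 9.68% of all tested probe sets. The order was picked from these genes after their values were seen, so the 2 shares are a description and not a test. A positive mean difference, in any order of pairs, was found for 7 of the 11 and for 41.7% of all tested probe sets. Beside this, the eIF4A control transcript, whose excess of 3' over 5' signal reports RNA quality, had an excess of 1.67, 1.52 and 1.95 after Enigma RNAi, against 1.49, 1.22 and 1.43 in controls. Its pair differences were 0.18, 0.30 and 0.52. The excess for actin had pair differences of 0.01, 0.24 and 0.25, and that for Gapdh had -0.06, 0.14 and 0.13. On average the excess was higher after Enigma RNAi by 0.33 for eIF4A, 0.17 for actin and 0.07 for Gapdh. The part of RNA quality in the Ugt differences was not tested.

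**Figure D3:**
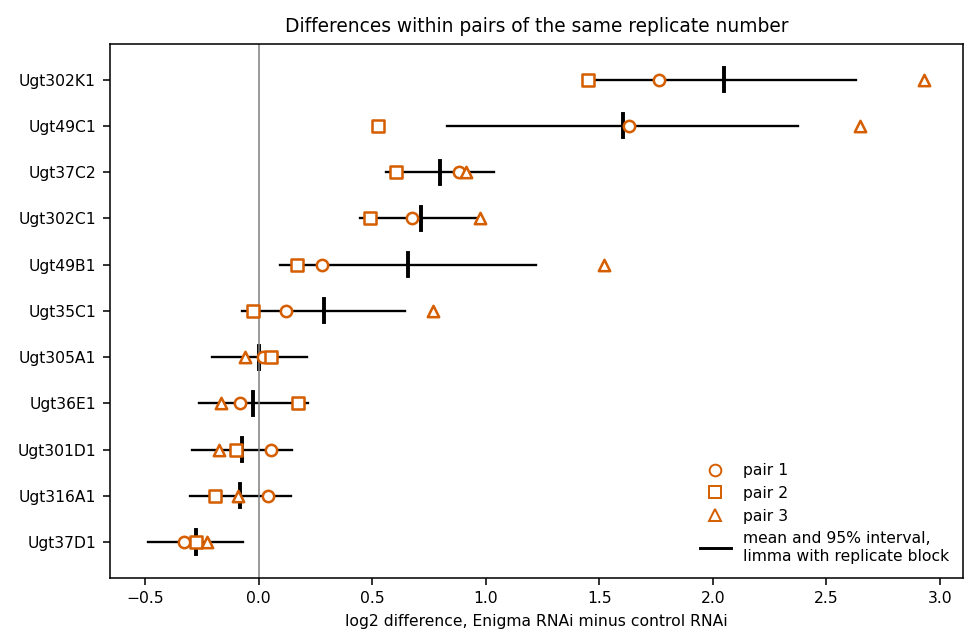
Log2 difference, Enigma RNAi minus control RNAi, within each pair of arrays of 1 replicate number (open symbols) for the 11 expressed Ugt probe sets, with the mean and its 95% interval from limma with the replicate block (black). Ugt302K1, Ugt49C1, Ugt37C2, Ugt302C1 and Ugt49B1 lie above 0 in all 3 pairs and Ugt37D1 lies below 0 in all 3.

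Replicate numbers were far apart for several Ugt genes. A moderated F-test of the replicate number, with the treatment as a term in the same fit, called 6 of the 11 and 23.5% of all tested probe sets at the adjusted threshold, and 7 of the 11 and 40.4% at an unadjusted p under 0.05. The 6 genes were Ugt35C1 (adjusted p = 0.00363), Ugt302K1 (adjusted p = 0.00683), Ugt49B1 (adjusted p = 0.0157), Ugt37C2 (adjusted p = 0.0217), Ugt49C1 (adjusted p = 0.0376) and Ugt305A1 (adjusted p = 0.0481), all from limma. Calls for Ugt35C1 and Ugt302K1 held in all 10 and 11 alternatives in which they were tested. Those for Ugt49B1, Ugt37C2 and Ugt49C1 held in 8 of 11, 7 of 10 and 6 of 11, and that for Ugt305A1 held in 2 of 10. The means of the 2 arrays of a number spanned at least 1 for 4 of the 11, against 4.59% of all tested probe sets, and the median span was 0.43, against 0.32.

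The genes did not follow the same number. Ugt35C1 averaged 6.35, 5.15 and 4.41 over the arrays numbered 1, 2 and 3, and Ugt49B1 averaged 9.54, 8.59 and 7.77. Both were thus high in number 1 and low in number 3, with each treatment. Ugt302K1 averaged 7.83 in number 2, 6.91 in number 1 and 5.39 in number 3, and its span of 2.44 was reached or exceeded by 0.172% of all tested probe sets. Ugt37C2 had the same order in a narrower span, at 5.34, 5.06 and 4.66 for numbers 2, 1 and 3. Ugt49C1 was highest in number 2, at 7.32, with 5.54 in number 1 and 6.07 in number 3, so that it and its neighbour Ugt49B1 had their high values in different replicates. Ugt305A1 averaged 4.51, 4.90 and 4.50, raised in number 2, the number with the higher medians among probe sets below the filter.

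Some markers of the cells themselves moved with the replicate number as well. All 5 plasmatocyte markers that passed the filter were called in the same F-test, against 23.5% of all tested probe sets. The crystal cell marker lz and the tubule marker Irk2 were not (limma F-test, adjusted p = 0.591 and 0.450). The plasmatocyte markers NimC1, crq, Sr-CI and eater, below the filter, had their highest mean in number 2. With each treatment, that number also had the highest median over all probe sets below the filter. Whether these markers rose beyond that shift was not tested. Col4a1 had values of 9.52, 7.59 and 7.53 after Enigma RNAi, against 9.78, 7.65 and 7.41 in controls. The summed linear signal of the 9 plasmatocyte markers on the array was 4240, 2324 and 2284 after Enigma RNAi, against 4858, 2635 and 2128 in controls. Its largest share came from Hml, with log2 values of 11.28, 10.70 and 10.59 after Enigma RNAi, against 11.48, 10.93 and 10.61 in controls. The sum was highest in number 1 with both treatments, as were Ugt35C1 and Ugt49B1, and its part in their values was not tested. None of these markers was called for the treatment, with or without the block.

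**Figure D4:**
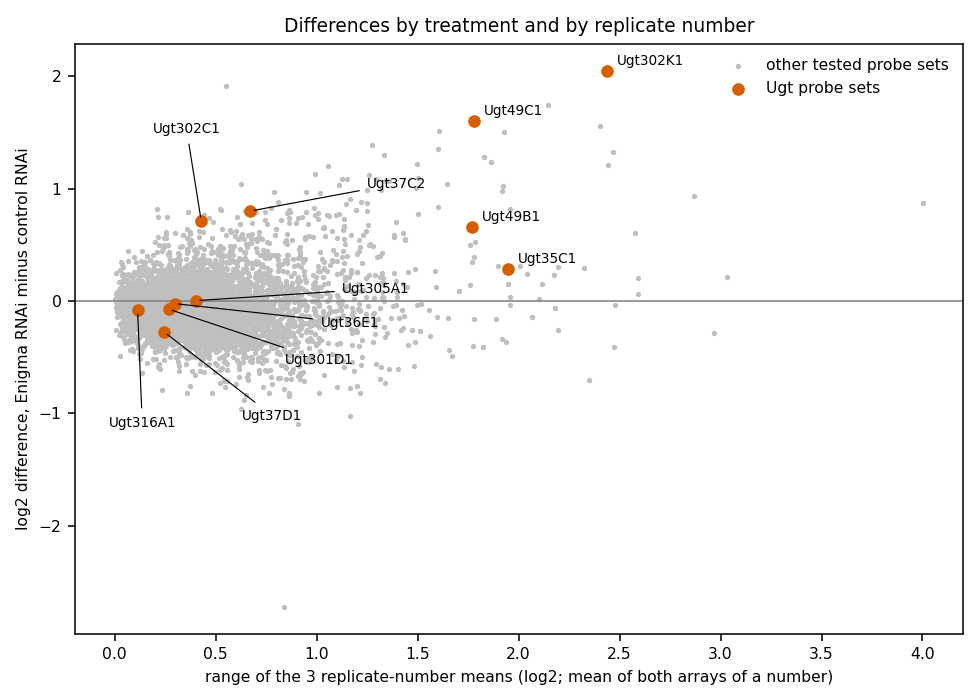
Log2 difference, Enigma RNAi minus control RNAi (vertical), against the range of the 3 replicate-number means (horizontal, log2), for the 11 expressed Ugt probe sets (orange) and the other tested probe sets (grey). Ugt302K1 and Ugt49C1 are far along both axes, Ugt49B1 and Ugt35C1 chiefly along the replicate axis, and the other 7 have a replicate range under 1.

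Genes around the family were looked at for the supply of UDP-sugars and for the control and export side of detoxification. Of 16 genes for UDP-sugar synthesis, transport and use, 13 were on the array and 11 were tested, with 5 higher and 6 lower means and a median difference of -0.05. None passed with limma, with or without the block, while 4 had an unadjusted p under 0.05 with the block, against 19.3% of all tested probe sets, and 0 without it, against 4.26%. The largest differences were those of Ugalt, a UDP-galactose transporter of the Golgi, at -0.37, and of UGP, which makes UDP-glucose, at 0.34. UGP had values of 7.75, 7.84 and 7.98 after Enigma RNAi, against 7.50, 7.78 and 7.27 in controls (limma with the block, adjusted p = 0.23). The replicate number was called for 4 of the 11, against 23.5% of all tested probe sets. These were sgl, the UDP-glucose dehydrogenase, the phosphoglucomutase Pgm1, the UDP-xylose synthase Uxs and the glycoprotein glucosyltransferase Uggt, named here after their values were seen.

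Of 12 regulators and exporters of foreign compounds, 7 were tested, with 5 higher and 2 lower means and a median difference of 0.04, and 0 had an unadjusted p under 0.05 in limma with or without the block. cnc, which encodes the fly counterpart of the transcription factor Nrf2, differed by 0.09, its inhibitor Keap1 by -0.04 and the small Maf partner maf-S by -0.19. The nuclear receptor Hr96 differed by 0.04. MRP, an ABC transporter of the family that exports conjugates, had 11.37, 10.23 and 9.99 after Enigma RNAi, against 11.17, 10.26 and 9.38 in controls. It was high in number 1 and low in number 3, like Ugt35C1 and Ugt49B1, and was the gene of this list called for the replicate number (limma, adjusted p = 0.00407). The transporters Mdr49, Mdr50, Mdr65 and Mrp5 and the transcription factor gene ss were below the filter.

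Cytochrome P450s and glutathione S-transferases are the other large families of detoxification enzymes. Of 36 glutathione S-transferase probe sets 80.6% were tested, and of 85 cytochrome P450 probe sets 22.4%, beside the 31.4% of the Ugt probe sets. The median differences were 0.29 for the Ugt probe sets, 0.42 for the P450s and 0.43 for the transferases, and without control 3 they were 0.0093, 0.27 and 0.32. Whether the families differ was not tested.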

How the data were processed

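The authors' deposited values are log2 expression values of 6 Affymetrix arrays, and the submitters' processing notes name GCRMA as the method. GCRMA corrects background, normalizes between arrays and summarises probe sets. The sources used here give no version, and the log2 scale was taken from the method and the range of -0.32 to 14.31. Per the labels, 8 µg of total RNA was labelled with biotin. No depth applies to arrays, and 3 per group limits the precision.

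Of 14010 probe sets, 44 controls were left out, and 6975 with values above 4 on at least 3 arrays were tested. Genes came from GEO's platform annotation, checked against RefSeq Release 6 plus ISO1 MT, and 0 Ugt symbols differed. Chromosome arms and neighbouring genes came from that RefSeq table. The sources used here name no build for the array's own annotation, and coordinates are not given. Two-sided tests were run in R 4.3.3 with limma 3.58.1 (lmFit, then eBayes), with Benjamini-Hochberg adjustment over all tested probe sets and a threshold of 0.05. The script was tested on simulated data.

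The main fit had the treatment alone, and in it every expressed Ugt probe set had an adjusted p of 0.999 (limma). For some genes only the blocked p-value is printed above. Same-numbered arrays deviated together from their group means (r = 0.796, 0.644 and 0.647), so the numbers were taken as pairs and the blocked value is printed where it bears on a call. This pairing rests on the values and the titles. Alternatives covered the block, normalization, filter, a floor and left-out arrays. All expressed Ugt probe sets are named with values, and of the others the 3 with the highest means. Members and lists were chosen with earlier results of these data known.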

Additional observations from a re-analysis of the deposited data

How the results depend on the processing

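With the replicate number as a block, 44 probe sets and 2 Ugt probe sets were called, against 0 and 0 without it. The total was 3 with a random block. Combined with the block, in settings chosen after seeing the data, it was 1 under quantile normalization, 1 under cyclic loess, 1 without a filter, 11 with a floor at 4 and 94 with a mean log2 of at least 6. Under that stricter filter 3 of 5 Ugt probe sets were called, and under the other settings named here none was. Leaving out a replicate number within the blocked fit gave totals of 586, 2 and 8 without numbers 1, 2 and 3, and Ugt counts of 5, 0 and 1, the highest without number 1, where 1 gene of UDP-sugar supply was also called. The Enigma difference lay between -3.00 and -2.52 when single arrays were left out, and passed in every blocked fit in which it was tested: at -2.72 with the fixed or random block or no filter, -2.71, -2.63 and -2.83 without replicate 1, 2 or 3, -2.72 with quantile normalization or cyclic loess, and -2.31 with the floor. Without the block, no Ugt probe set passed in any alternative.

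The median Ugt difference was 0.71 with a mean log2 of at least 6, with or without the block, over 5 probe sets, 0.03 with no filter, over all 35, and between 0.0093 without control 3 and 0.80 without control 1. For the replicate number, 1637 of 6975 probe sets and 6 of 11 Ugt probe sets were called. The counts were 938 and 3 with quantile normalization, and 973 and 2 with cyclic loess. With a mean log2 of at least 6 they were 1207 of 3625 probe sets and 3 of the 5 Ugt probe sets tested. When single arrays were left out, they were 1000 to 1719 and 3 to 5, with the totals' lowest without Enigma 2. The cause was not tested.

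Signs turned for 4 Ugt genes. With single arrays left out, the ranges were -0.28 to 0.85 for Ugt35C1, -0.15 to 0.064 for Ugt36E1, -0.14 to 0.12 for Ugt305A1 and -0.16 to 0.011 for Ugt301D1. Ugt305A1 was at -0.0027 with cyclic loess, with or without the block, and at -0.0042 and -0.022 in the blocked fit without replicate 1 or 2. Ugt36E1 was at 0.0048 and 0.047 in the blocked fit without replicate 1 or 3. Cross-hybridisation between family members was not tested and may limit single values. Signals close to background limit those of the genes near the filter.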
